A study of Arabidopsis thaliana with 12 samples.

Results

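Of the 26568 genes listed in the count table, 110 were expressed in roots of the Arabidopsis thaliana ecotype Rak-2 and silent in roots of the ecotype Or-1. A gene was taken as a member of this set when it had at least 10 raw counts in each of the 6 Rak-2 libraries and at most 3 in each of the 6 Or-1 libraries. The same rule with the ecotypes exchanged found 89 genes. The contrast between the ecotypes chose the members, so their difference between Rak-2 and Or-1 is given as a description with no test. The tests concern the difference between NH4+ and NO3- within Rak-2, and the genes next to the members or related to them. The rule did not use that difference, but its minimum applied under both nitrogen sources. The neighbours and related genes were picked by position or by protein sequence.

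Rak-2 is the NH4+-sensitive ecotype of the study (ecotype 16 in the labels) and Or-1 the NH4+-tolerant ecotype (ecotype 2 in the labels). Plants of both ecotypes were raised on soil, moved to hydroponics with nitrate for 5 d. The study's methods add a spell without nitrogen to run down stored nitrate, which all groups shared, before either 1 mM (NH4)2SO4 or 1 mM Ca(NO3)2 was given for 1 d. The NH4+ and NO3- groups are therefore both resupplied after starvation, and RNA was taken from their roots. No group without nitrogen was sequenced, so a fall under NH4+ cannot be told apart from a rise under NO3-, or the reverse. Below, a response to NH4+, a fall or a rise within Rak-2 means only NH4+ compared with NO3-. The 4 groups, Rak-2 under NH4+, Rak-2 under NO3-, Or-1 under NH4+ and Or-1 under NO3-, had 3 libraries each. Each ecotype is a single natural line with no transgene, and several plants shared a hydroponic pot. The labels do not say whether replicates came from separate pots, so the p-values measure the spread between these libraries. The libraries held from 16005610 to 22388738 counts. All 10 root marker genes examined had at least 10 counts in every library. Of 7 leaf marker genes, 4 also had at least 10 counts in every library, and the summed level of the 7 was from 250 to 984 CPM, that is, counts relative to the TMM-scaled size of each library, in Rak-2 under NH4+, from 48.2 to 406 in Rak-2 under NO3-, from 71.7 to 332 in Or-1 under NH4+ and from 193 to 722 in Or-1 under NO3-.

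Natural ecotypes of a plant species differ in their gene content as well as in single bases. Genes for intracellular immune receptors, receptor-like kinases and lectins often lie in tandem arrays of related copies, and such arrays are known to vary between Arabidopsis ecotypes. An RNA count near 0 shows that few reads were assigned to a gene model of the reference. A lost gene, a sequence that differs from the reference and a gene that is not transcribed cannot be told apart in these counts.

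In the 6 Rak-2 libraries the members held 135051 counts in total, and in the 6 Or-1 libraries they held 151. Of the 110 members, 69 had no count in any Or-1 library, which allows up to 3 counts per library (0.154 CPM under NH4+ and 0.165 CPM under NO3- in the smallest scaled Or-1 library). The other 41 had at least 1 count in Or-1, and the most that any of them reached was 10 over the 6 libraries. The members took from 0.114% to 0.128% of the counts of a Rak-2 library. Against the 3-count floor, the level of a member in Rak-2 was at least 4.25-fold to at least 1003-fold higher than in Or-1 under NH4+ (median 25.6), and at least 5.33-fold to at least 1277-fold higher under NO3- (median 25.2). Such a bound depends on the level of the gene in Rak-2. It allows for counting error, and for nothing else, in the 69 members with no Or-1 count. In the other 41 the floor is the most that the rule allows, and counting error is not covered.

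**Figure D1:**
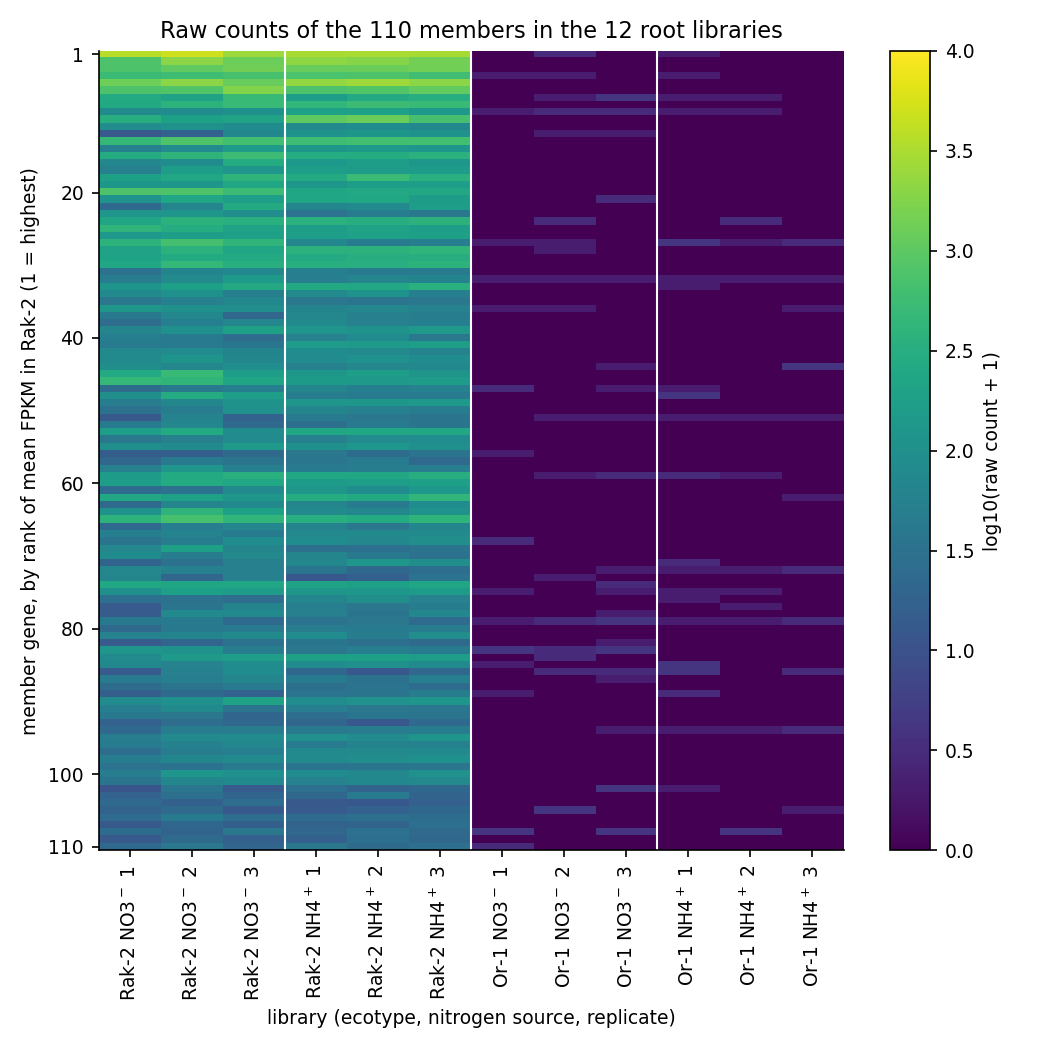
Raw counts of the 110 members in the 12 root libraries, with genes in rows from the highest to the lowest mean FPKM in Rak-2, libraries in columns, and colour for log10 of the count plus 1. All 6 Rak-2 columns are filled from top to bottom, and no Or-1 cell exceeds 3 counts.

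The thresholds were crossed by small margins at their edges. Just inside the Rak-2 minimum were AT2G15327 with a lowest Rak-2 count of 10, and AT4G02000 and AT1G05770 with 11. Just outside it were AT3G29110 with a lowest count of 9, and AT1G77150 and AT4G01735 with 8. Just inside the Or-1 maximum were a newly assembled gene, RTFL7 and AT4G05040, each with up to 3 counts in an Or-1 library, while AT1G10875, AT5G24210 and another newly assembled gene reached 4 and stayed outside. A member at the edge of the rule is therefore close to genes that were left out.

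Most members were expressed at a low level. Levels between genes were compared as FPKM, the scaled counts per kilobase of the deposited gene length, on the CPM scale. The median member had 3.11 FPKM over the 6 Rak-2 libraries (range 0.412 to 104.6), against 12.7 for all 17311 genes with at least 10 counts in every Rak-2 library. Of the members, 13 lay above that median, 20 lay above 10 FPKM and 10 lay below 1 FPKM. In 48 members no library reached 100 counts, and 6 members reached 1000 counts in at least 1 library. The 5 members with the most counts held 40.2% of all member counts.

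The highest level belonged to AT5G45490, a P-loop nucleoside triphosphate hydrolase, the enzyme fold that also drives many immune receptors and motors. Its raw counts were 3028, 3108 and 3027 in Rak-2 under NH4+ and 3651, 5015 and 2621 under NO3-, and in Or-1 they were 1, 0 and 0 under NH4+ and 0, 2 and 0 under NO3-. Its level in Rak-2 was 104.6 ± 28.1 FPKM (SD, n = 6), at least 1003-fold above the floor of Or-1 under NH4+. The next was AT5G23830, an MD-2-related lipid recognition protein, at 90.6 ± 21.9 FPKM with no count in Or-1. These 2 genes stood well above the other members with a reference identifier.

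AT4G13860, a protein with an RNA recognition motif, followed at 42.7 ± 6.90 FPKM (SD, n = 6) with 3 Or-1 counts in all. AT1G51270, a vesicle-associated protein of the family that tethers membranes to the endoplasmic reticulum, was at 37.8 ± 9.20 FPKM, and the uncharacterized AT5G49645 at 36.1 ± 14.6 FPKM. Neither of them had a count in Or-1. AT5G39640, a putative endonuclease or glycosyl hydrolase, was at 20.3 ± 4.21 FPKM, the uncharacterized AT3G25719 at 16.45 ± 10.8, the DUF247 transmembrane protein AT1G65985 at 15.8 ± 1.48 and the uncharacterized AT3G24517 at 12.5 ± 4.03. The deposited lengths of AT5G39640 and AT3G25719 are only 231 and 237 bases, so their FPKM ranks rest on 4.70 and 3.90 CPM. AT1G60750, an NAD(P)-linked oxidoreductase, was at 20.6 ± 14.7 FPKM, and this wide spread followed the nitrogen source (given with the NH4+ response). Newly assembled genes held 4 of the 10 highest ranks among all members.

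**Figure D2:**
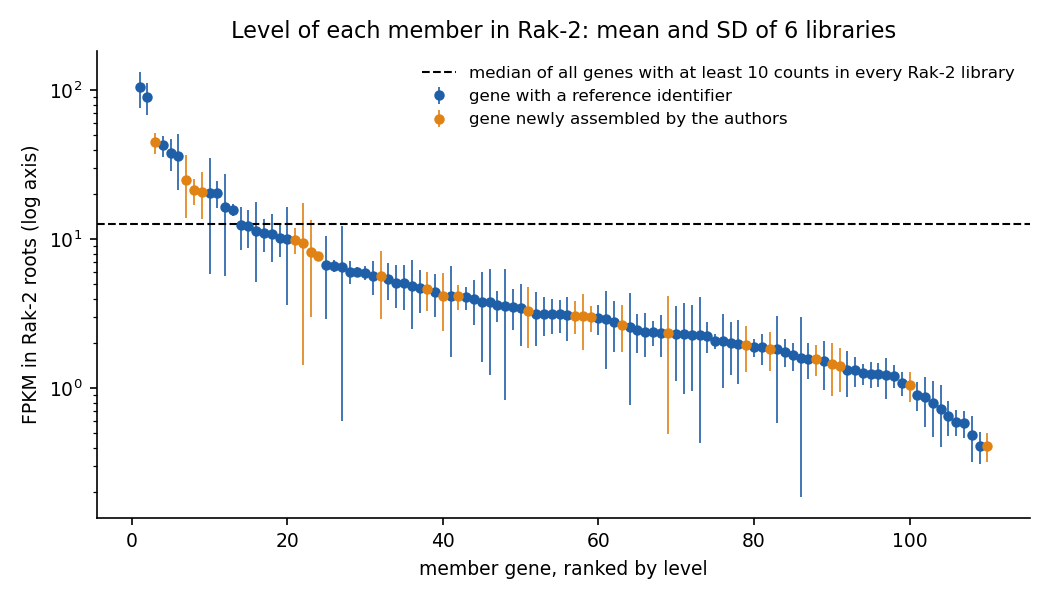
Level of each member in Rak-2 roots as FPKM on a log axis, with members ranked from high to low, points for the mean and bars for the SD of 6 libraries, and the dashed line at the median of all genes expressed in Rak-2 (12.7 FPKM). Only 13 of the 110 members lie above the line, and the 2 highest reach 104.6 and 90.6 FPKM.

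The members were shorter and less often named than other genes expressed in Rak-2. Their median length was 1422 bases against 1869, and the median protein of the 85 members with a reference identifier had 288 residues against 393. They had a median of 3 coding exons against 4, and 25 of them (29.4%) had a single coding exon, against 18.1% of expressed genes. Only 8 of the 85 (9.41%) carried a gene symbol of their own, against 44.2% of expressed genes. These were TLP5, a tubby-like protein, GLR2.2, a glutamate receptor-like channel, scpl33, a serine carboxypeptidase-like protein, PUM25, a Pumilio RNA-binding protein, RTFL7, a small ROTUNDIFOLIA-like protein, OFP9, an ovate family transcription repressor, TOC75-IV, a relative of the import channel of the chloroplast outer membrane, and NIP4;2, a channel of the NOD26-like aquaporin family. These figures describe the set and were not tested.

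The other 25 members were genes newly assembled by the authors from their reads, with no reference identifier. They were 10.6% of the 236 newly assembled genes with at least 10 counts in every Rak-2 library, whereas the members with a reference identifier were 0.498% of such genes. Their levels ranged from 0.412 to 44.7 FPKM with a median of 3.31, and 15 of the 25 had no count in Or-1. A newly assembled gene is defined by reads of these libraries, so its presence in the table is not independent of its expression.

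Intracellular immune receptors, which detect pathogen effectors inside the cell, gave 7 members by the words of their annotation, or 6.03% of the 116 expressed in Rak-2. Of these, 5 had no count in Or-1. The highest was AT4G09420, annotated as a TIR-NBS protein, at 6.76 ± 3.85 FPKM (SD, n = 6). It was followed by AT4G09435, annotated as TIR-NBS-LRR, at 3.77 ± 2.53 FPKM. AT4G11170, AT4G36140, AT5G41750 and AT1G63860, also of the TIR-NBS-LRR class, lay between 0.904 and 3.16 FPKM. The list was built on keywords, and its last member, AT5G25010, is a DUF1336 protein described as enhanced disease resistance-like rather than a receptor.

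Lectins, which bind sugars, gave 4 members, or 4.44% of the 90 expressed in Rak-2. AT1G61480, an S-locus lectin receptor kinase, was at 6.08 ± 1.08 FPKM, the legume lectin AT1G53080 at 2.297 ± 1.34 and the mannose-binding lectins AT1G52110 and AT1G05770 at 1.82 and 1.32 FPKM. Kinases gave 5 members, or 0.503% of the 994 expressed in Rak-2, a share close to the 0.498% of all expressed genes with a reference identifier. The highest under that keyword was AT1G58150 at 11.0 ± 2.70 FPKM, which is annotated as a phosphoglycerate kinase, an enzyme of glycolysis and not a protein kinase. Its reference protein has only 91 residues and no blastp match in another gene, so that annotation is uncertain. AT1G58150 was followed by AT1G61480 and by the leucine-rich repeat receptor kinases AT2G28990 at 3.77 ± 2.26, AT5G59670 at 2.46 ± 0.718 and AT3G47580 at 1.21 ± 0.217 FPKM.

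Ubiquitin-related annotations, which concern the tagging of proteins for degradation, gave 4 members, or 1.83% of the 219 expressed in Rak-2. The highest were AT1G53980 at 5.07 ± 1.63 FPKM and AT1G53950, a ubiquitin-40S ribosomal S27a-like protein, at 4.71 ± 1.51 FPKM. The others, AT3G56890 and AT4G22390, are F-box associated and were at 3.98 and 2.35 FPKM. Proteins of unknown function were the most numerous, with 26 members (1.57% of 1658 expressed), led by AT5G49645 and AT3G25719. A UDP-glycosyltransferase, AT5G37950, and a retrotransposon-derived gene, AT4G02000, made 1 member each. No member was annotated as a cytochrome P450, a terpene synthase or a pentatricopeptide protein, of which 127, 52 and 228 genes were expressed in Rak-2. At the 0.498% share of all expressed genes with a reference identifier, groups of this size need hold no member. The keywords for small secreted peptides, such as defensins, matched no member either, but AT5G53742, counted under unknown function, is annotated as egg cell-secreted-like. Of 26 listed genes known to vary between Arabidopsis ecotypes, none was a member. Members were 0.331% of all listed genes with a reference identifier, so a list this short says nothing either way.

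By the gene order of the reference annotation, 19 members were on chromosome 1, 6 on chromosome 2, 15 on chromosome 3, 25 on chromosome 4 and 20 on chromosome 5. Chromosome 4 had the highest share, with 0.962% of its genes expressed in Rak-2 as members, and chromosome 2 the lowest with 0.231%. There were 5 runs of members separated by at most 1 listed gene, which held 12 members. The runs of 2 were AT4G09420 with AT4G09435 (immune receptors), AT4G19080 with AT4G19090 (DUF594 proteins), and AT5G49640 with AT5G49645 (uncharacterized). The other 2 runs had 3 members each.

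The run on chromosome 1 lay in an array of GDSL lipases, secreted enzymes that cleave lipid esters. Of its members, AT1G53950 and AT1G53980 are annotated as ubiquitin-like, and only AT1G53970 as GDSL esterase/lipase-like. AT1G53950, AT1G53970 and AT1G53980 had from 19 to 112 counts in every Rak-2 library and none in any Or-1 library. On the left, AT1G53945 had no count in any of the 12 libraries, and GLIP2 beyond it was expressed in both ecotypes, with a mean of 84.9 CPM in Rak-2 and 31.1 CPM in Or-1. On the right, GLIP3 was at 26.7 ± 11.6 CPM in Rak-2 and 2.86 ± 1.39 CPM in Or-1 under NO3- (SD, n = 3), a log2 fold change of -3.23 (edgeR quasi-likelihood test, FDR 0.000247). Under NH4+ it was at 18.7 ± 4.65 and 15.05 ± 1.21 CPM, with a log2 fold change of -0.31 that did not pass (FDR 0.569). GLL22, the next lipase, was at 449 and 512 CPM in Rak-2 and Or-1. AT1G53970 and AT1G53980 overlap on opposite strands, and AT1G53970 has only 97 residues, less than a full lipase.

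The run on chromosome 4 lay in an array of ankyrin repeat genes, whose repeats bind other proteins. AT4G03480 had from 24 to 43 counts in the Rak-2 libraries, AT4G03490 from 149 to 283 and AT4G03500 from 234 to 749, and none of the 3 had a count in Or-1. The next ankyrin repeat genes in order, AT4G03470 and AT4G03460 (the latter the closest relative of AT4G03500, with 68.8% identity), were expressed in both ecotypes at 4.40 and 8.59 CPM in Rak-2 and at 3.75 and 8.19 CPM in Or-1. On the other side, RMA1, directly beside AT4G03500, was at 46.9 CPM in Rak-2 and 18.3 CPM in Or-1. Its log2 fold change was -1.61 under NO3- (FDR 0.000538, edgeR) and -0.39 under NH4+, where it did not pass (FDR 0.24). In the reference order, genes without a count in Or-1 therefore lay beside genes expressed there, and whether Or-1 holds the former is not known. AT4G03490 and AT4G03500 overlap on opposite strands, and the library kit named in the labels does not mark strand, so their reads cannot be told apart where they overlap. Another ankyrin repeat member, AT4G05040, lay elsewhere on chromosome 4.

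**Figure D3:**
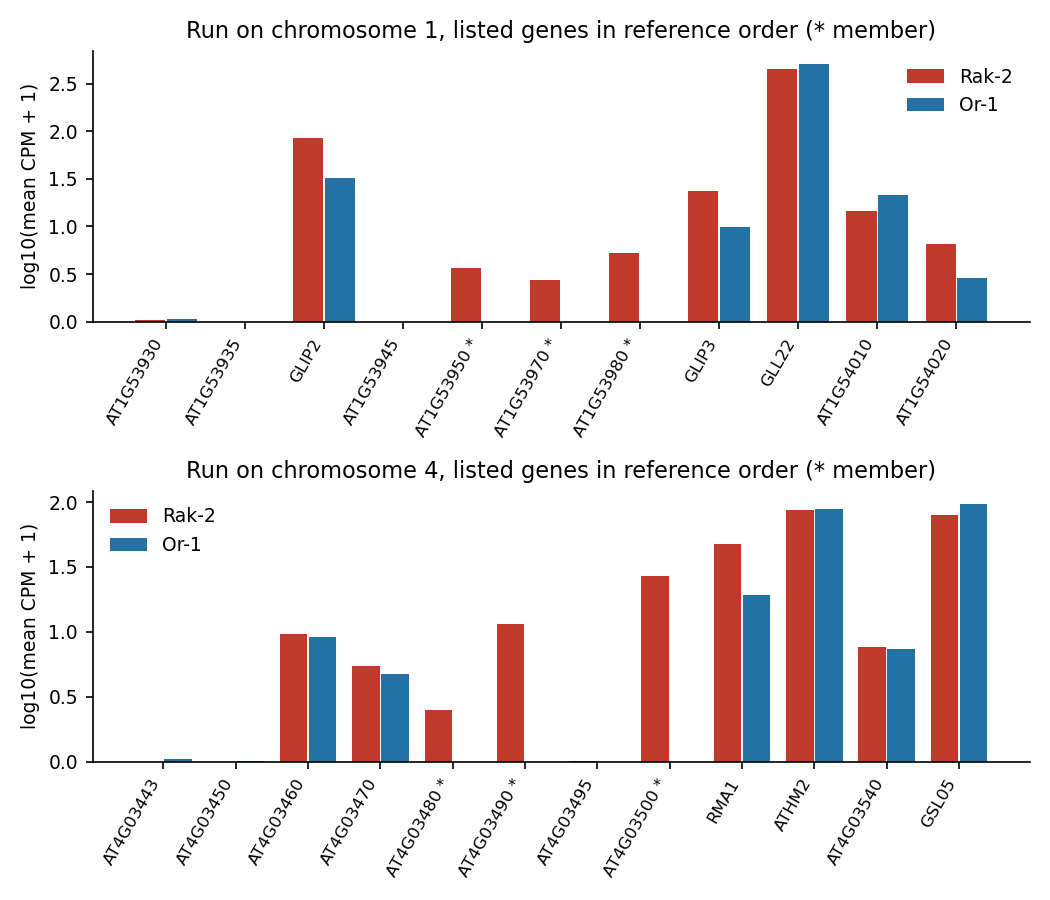
Mean level over 6 libraries per ecotype, as log10 of CPM plus 1, for the listed genes around the 2 runs of 3 members, in reference order, with members marked by an asterisk. The members have red bars (Rak-2) and no blue bars (Or-1). Of the genes directly beside them, GLIP3 and RMA1 have higher bars in Rak-2 and AT4G03470 has bars of like height. GLL22 and AT4G03460, a little further out, also have bars of like height in both ecotypes.

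In all, 21 of the 85 members with a reference identifier overlap another annotated gene, 18 of them one on the opposite strand and 13 a gene that is also in the count table. AT2G46455, an OxaA/YidC-like protein, overlaps CNGC12, a cyclic nucleotide-gated channel that reached 8833 counts in Rak-2 and 2361 in Or-1. AT5G45490 overlaps AT5G45480. In Or-1, CNGC12 had from 1095 to 2361 counts per library, and AT2G46455 had none. There AT5G45480 had from 1003 to 1531 counts, and AT5G45490 at most 2. Whether the Rak-2 counts of such members hold reads of the partner was not tested.

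The genes beside the members were then examined, taking on each side the nearest listed gene that was not itself a member. They were picked by position and not by their own values. They are not independent of the members, since the same libraries and the same ecotype contrast chose the members. There were 157 such neighbours, of which 96 had enough counts to be tested. Here and throughout, a call needed an adjusted p (FDR, by Benjamini and Hochberg, from edgeR's quasi-likelihood test) under 0.05 together with an absolute log2 fold change over 1. Under NO3-, 26 neighbours (27.1%) were called between the ecotypes, against 8.64% of all genes tested. Of these, 18 were lower in Or-1 (18.8%, against 4.29% of all genes) and 8 were higher (8.33%, against 4.35%). Under NH4+, 28 were called (29.2%, against 12.2% of all genes), 20 of them lower in Or-1 (20.8%, against 5.66%) and 8 higher (8.33%, against 6.55%). The NO3- and NH4+ comparisons use different libraries of the same ecotypes, and 20 neighbours were called in both, 14 lower and 6 higher in Or-1. Without the neighbours that overlap a member, 25 of 91 were called under NO3- and 26 under NH4+. The median neighbour differed little between the ecotypes (log2 fold change -0.09 under NO3- and -0.20 under NH4+, against -0.02 and -0.00189 for all genes).

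Of the neighbours that fell in Or-1, AT5G45500, an RNI-like protein next to AT5G45490, came close to a member in its pattern. It had 114 ± 9.81 CPM in Rak-2 and 0.180 ± 0.0714 CPM in Or-1 under NH4+ (SD, n = 3), and 179 ± 54.8 and 0.284 ± 0.185 CPM under NO3-. No Or-1 library had more than 9 of its counts, while a Rak-2 library had up to 4450. The log2 fold change was -9.25 under NH4+ (FDR 6.83e-08, edgeR) and -9.26 under NO3- (FDR 8.6e-08). AT5G59680, a leucine-rich repeat receptor kinase next to its relative AT5G59670, was at 90.6 ± 11.6 and 2.41 ± 1.3 CPM in Rak-2 and Or-1 under NH4+, and its log2 fold change was -5.23 (FDR 1.51e-05). Under NO3- it was at 208 ± 101 and 3.57 ± 0.191 CPM, with a log2 fold change of -5.86 (FDR 6.93e-06).

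GLR2.3, a glutamate receptor-like channel beside GLR2.2, had no count in Or-1 but missed the rule with a lowest Rak-2 count of 5. It was at 3.56 ± 2.46 CPM in Rak-2 under NO3-, at least 21.5-fold above the Or-1 floor, and at 0.369 ± 0.159 CPM under NH4+. UBQ11, a polyubiquitin gene beside AT4G05040, was at 766 ± 35.6 CPM in Rak-2 and 17.4 ± 2.86 CPM in Or-1 under NH4+ (log2 fold change -5.46, FDR 1.88e-08, edgeR). Polyubiquitin genes have near-identical copies, and how reads were divided among them is not stated, so this value is uncertain. AT1G05780, a VMA21-like assembly factor of the vacuolar ATPase beside AT1G05770, was at 8.67 ± 1.58 CPM in Rak-2 under NH4+ and at 8.03 ± 0.640 under NO3-, and its Or-1 level was 0.0855 ± 0.148 CPM under NH4+ and 0 in all 3 libraries under NO3-.

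Other neighbours rose in Or-1. AT2G15340, a glycine-rich protein next to AT2G15327, had no count in Rak-2 and up to 81 in Or-1, and was the only neighbour in the reverse set. RLP48, a receptor-like protein beside AT4G13860, was at 0.370 ± 0.154 CPM in Rak-2 and 3.42 ± 0.412 CPM in Or-1 under NO3- (log2 fold change 3.15, FDR 0.000132, edgeR). AT1G63870, a TIR-NBS-LRR gene beside the member AT1G63860, had no more than 4 counts in a Rak-2 library and up to 32 in an Or-1 library, with log2 fold changes of 2.70 under NO3- (FDR 0.0268) and 3.82 under NH4+ (FDR 0.00287). In the reference order, AT1G63860 with no count in Or-1 thus lay beside a gene near 0 in Rak-2. A further 47 neighbours (29.9%) had at most 3 counts in all 12 libraries, against 19.9% of all listed genes.

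**Figure D4:**
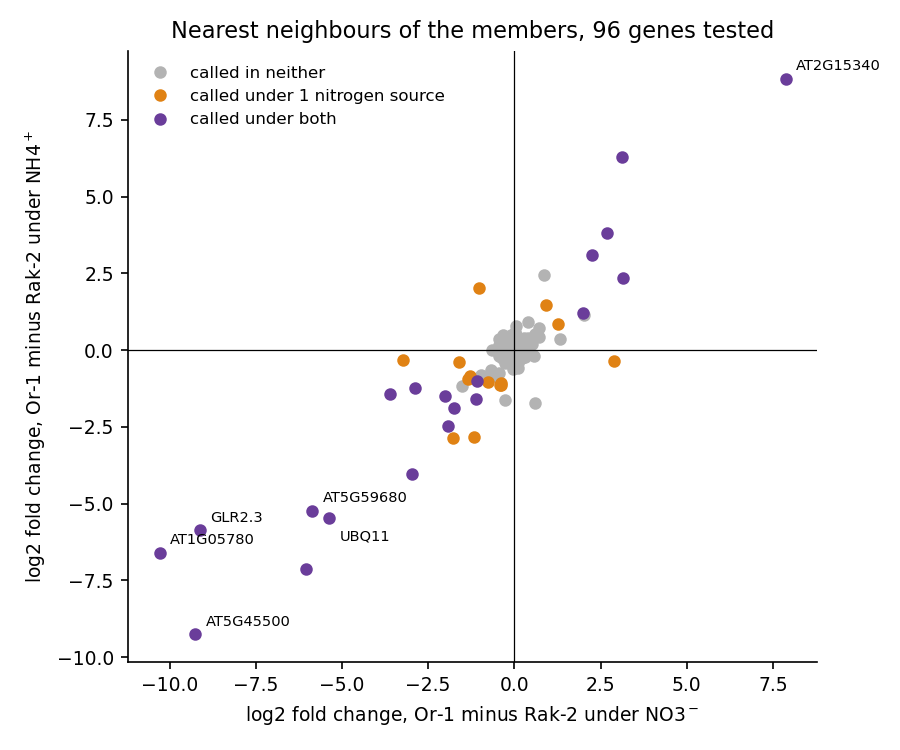
Log2 fold change between the ecotypes (Or-1 minus Rak-2) for the 96 tested neighbours of the members, under NO3- on the x axis and under NH4+ on the y axis, with colour for the number of nitrogen sources in which a neighbour was called. The 14 neighbours called lower under both are at the lower left, among them AT5G45500 at -9.26 and -9.25, and the 6 called higher under both are at the upper right.

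Related genes, near the member or elsewhere in the genome, were examined in the same way. The closest relative of each member was the best protein match in another gene of the reference, and 57 of the 85 members had one of at least 50% identity over at least 50% of the member. It lay directly beside the member in 11 cases, within 10 listed genes in 22, and on the same chromosome in 33. These relatives were 56 different genes, of which 49 were listed in the table and were not members. Of these 49, 36 had at least 10 counts in every Or-1 library, 34 of them also in every Rak-2 library. A relative of the member was therefore expressed in Or-1 roots in most of these cases.

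Of 39 relatives that could be tested, 13 were called between the ecotypes under NO3- (33.3%, against 8.64% of all genes), 6 higher and 7 lower in Or-1. Under NH4+, 12 were called (30.8%, against 12.2%), 5 higher and 7 lower. Some relatives are also neighbours, among them GLR2.3, AT5G59680 and AT1G63870 on the called side, so the shares of the 2 sets are not independent. The relative of AT5G45490, AT5G45440 with 70.4% identity, fell in Or-1, with log2 fold changes of -3.89 under NO3- and -5.06 under NH4+. AT1G60710 (ATB2), which has 78.4% identity to the oxidoreductase AT1G60750 and lies 4 genes away, also fell (-1.25 and -1.45). AT5G49870, with 71.01% identity to the mannose-binding lectin AT1G52110, rose in Or-1 by 2.32 and 2.27. AT1G62330, with 69.9% identity to the O-fucosyltransferase AT1G11990, had log2 fold changes of 0.45 and 0.38, both under the size needed for a call.

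Some relatives were so alike that reads could be shared. An identity of at least 80% was found for 16 members and of at least 95% for 4. AT3G54730 and OFP9, both members, are identical over 74.4% of AT3G54730, and their counts are uncertain for that reason. Another pair of members, AT3G60950 and AT3G61030, both lipid-binding C2-domain proteins 10 genes apart, share 84.4% of residues and had no count in Or-1. AT4G11170 had its closest match, at 51.6% identity, in AT5G49140, a TIR-NBS-LRR gene with no count in Rak-2 and up to 131 in Or-1. NIP4;1, next to NIP4;2 and 84.4% identical to it, had no count in any of the 12 libraries.

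The rule did not use the difference between NH4+ and NO3- within Rak-2. Its minimum in every Rak-2 library did, however, leave out genes near 0 under either nitrogen source, such as GLR2.3. Only the genes with at least 10 counts in every Rak-2 library share that limit. All 110 members were tested, since the rule itself requires counts in every Rak-2 library. Of these, 9 were called (8.18%), against 6.09% of the 19327 genes tested and 5.7% of those with at least 10 counts in every Rak-2 library. There were 2 members higher under NH4+ (1.82%), against 2.69% of all genes tested and 2.44% of those expressed in Rak-2, and 7 lower (6.36%), against 3.4% and 3.26%. The excess of lower over all genes was not tested, and only AT1G11990 and AT4G03500 of the 7 were called in every fit that left out 1 Rak-2 library. The log2 fold change was positive in 51 members and negative in 59, with a median of -0.07 against -0.01 for all genes. The 3 NH4+ and 3 NO3- libraries did not overlap in 33 members (30%), 14 higher and 19 lower, against 32.1% of all genes. At an unadjusted p under 0.05 there were 27 members (24.5%), against 28.7% of all genes.

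The NO3- libraries of Rak-2 were more variable than the NH4+ libraries, and the members shared this. The common biological coefficient of variation was 0.343 in Rak-2 under NO3- and 0.158 under NH4+. The members' median coefficient of variation was 31.3% under NO3- and 16.5% under NH4+, against 18.9% and 9.93% for all genes expressed in Rak-2. The members also had lower levels (median 3.11 against 12.7 FPKM), and the coefficients were not compared at like levels. The summed leaf markers also differed between the Rak-2 groups, from 250 to 984 CPM under NH4+ and from 48.2 to 406 under NO3-, and their part in the response was not tested.

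The largest change was in AT1G11990, an O-fucosyltransferase family protein, which adds fucose to other molecules. Its CPM were 3.56, 2.3 and 2.5 in Rak-2 under NH4+ and 26.9, 30.8 and 22.4 under NO3-. The groups were far apart, with a log2 fold change of -3.26 (SE 0.28, FDR 8.52e-05, edgeR quasi-likelihood test). In Or-1 it had 3, 1 and 2 counts under NH4+ and 1, 1 and 0 under NO3-. The call was kept in all 6 fits that left out 1 Rak-2 library.

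AT4G03500, the ankyrin repeat gene of the run on chromosome 4, was at 11.7, 13.4 and 12.1 CPM under NH4+ and at 52.3, 35.2 and 30.2 CPM under NO3-. It fell under NH4+ without overlap of the groups, by 1.66 on the log2 scale (SE 0.23, FDR 0.00499, edgeR), and the call was kept in all 6 fits. Its overlapping neighbour AT4G03490 was at 8.43 ± 0.825 and 12.7 ± 0.957 CPM (SD, n = 3), with a log2 fold change of -0.59 (FDR 0.102, edgeR), and AT4G03480 at 1.32 ± 0.175 and 1.71 ± 0.300 CPM, with -0.38 (FDR 0.544). These 2 did not pass the test.

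AT4G09300, a protein with LisH and RanBPM domains rose under NH4+. It was at 8.08, 7.64 and 8.08 CPM under NH4+ and at 3.07, 1.97 and 1.91 CPM under NO3-, with no count in Or-1. The log2 fold change was 1.78 (SE 0.29, FDR 0.0104, edgeR), and this call too was kept in all 6 fits. The other member that rose was the oxidoreductase AT1G60750, with 51.6, 64.7 and 32.2 CPM under NH4+ and 21.5, 8.64 and 10.9 CPM under NO3-. Its groups did not overlap, and its log2 fold change was 1.86 (SE 0.40, FDR 0.0265, edgeR). That call was lost without NH4+ replicate 1 or 2 or NO3- replicate 2 or 3 (FDR from 0.0501 to 0.0918).

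scpl33, of the serine carboxypeptidase-like family of hydrolases and acyltransferases, was at 2.41, 2.35 and 2.16 CPM under NH4+ and at 6.70, 13.5 and 9.46 CPM under NO3-. It fell by 2.1 on the log2 scale (SE 0.47, FDR 0.0213, edgeR), and the call was lost without any 1 of the NH4+ replicates or without NO3- replicate 2 (FDR from 0.0715 to 0.0889). GLR2.2, of the glutamate receptor-like family of cation channels, was at 3.92, 3.61 and 5.24 CPM under NH4+ and at 7.60, 18.8 and 10.3 CPM under NO3-. All NO3- libraries lay above all NH4+ libraries, with the second NO3- library the highest. It fell by 1.52 (SE 0.38, FDR 0.0444, edgeR), and the call was lost without any 1 NH4+ replicate or NO3- replicate 2 (FDR from 0.0806 to 0.159).

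AT4G09435, annotated as TIR-NBS-LRR, was at 7.63, 7.32 and 7.94 CPM under NH4+ and at 31.8, 19.1 and 12.5 CPM under NO3-. The NO3- libraries lay apart from each other as well as above the NH4+ libraries. AT4G09435 fell by 1.47 (SE 0.34, FDR 0.0353, edgeR). The call was lost without any 1 NH4+ replicate and without NO3- replicate 1 or 2 (FDR from 0.0687 to 0.125). The reference protein of AT4G09435 has only 473 residues. The gene overlaps AT4G09430 on the same strand, which is not in the count table, so its counts may hold reads of AT4G09430. The neighbour of AT4G09435 in the run, AT4G09420, was at 9.08 ± 1.17 CPM under NH4+ and 17.8 ± 9.36 CPM under NO3- (SD, n = 3). Its log2 fold change of -0.97 did not pass (FDR 0.135, edgeR). The remaining calls were the newly assembled genes newGene_1450 and newGene_1469. The gene newGene_1450 was at 1.46, 1.46 and 1.67 CPM under NH4+ and at 4.81, 8.69 and 3.50 under NO3-, and fell by 1.89 (SE 0.41, FDR 0.0289, edgeR). The gene newGene_1469 was at 1.61, 2.46 and 1.91 CPM under NH4+ and at 8.30, 5.78 and 4.92 under NO3-, and fell by 1.66 (SE 0.34, FDR 0.0227, edgeR). Both calls were lost without any 1 NH4+ replicate and without NO3- replicate 1 or 2, with FDR from 0.0579 to 0.114 for newGene_1450 and from 0.0521 to 0.101 for newGene_1469.

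**Figure D5:**
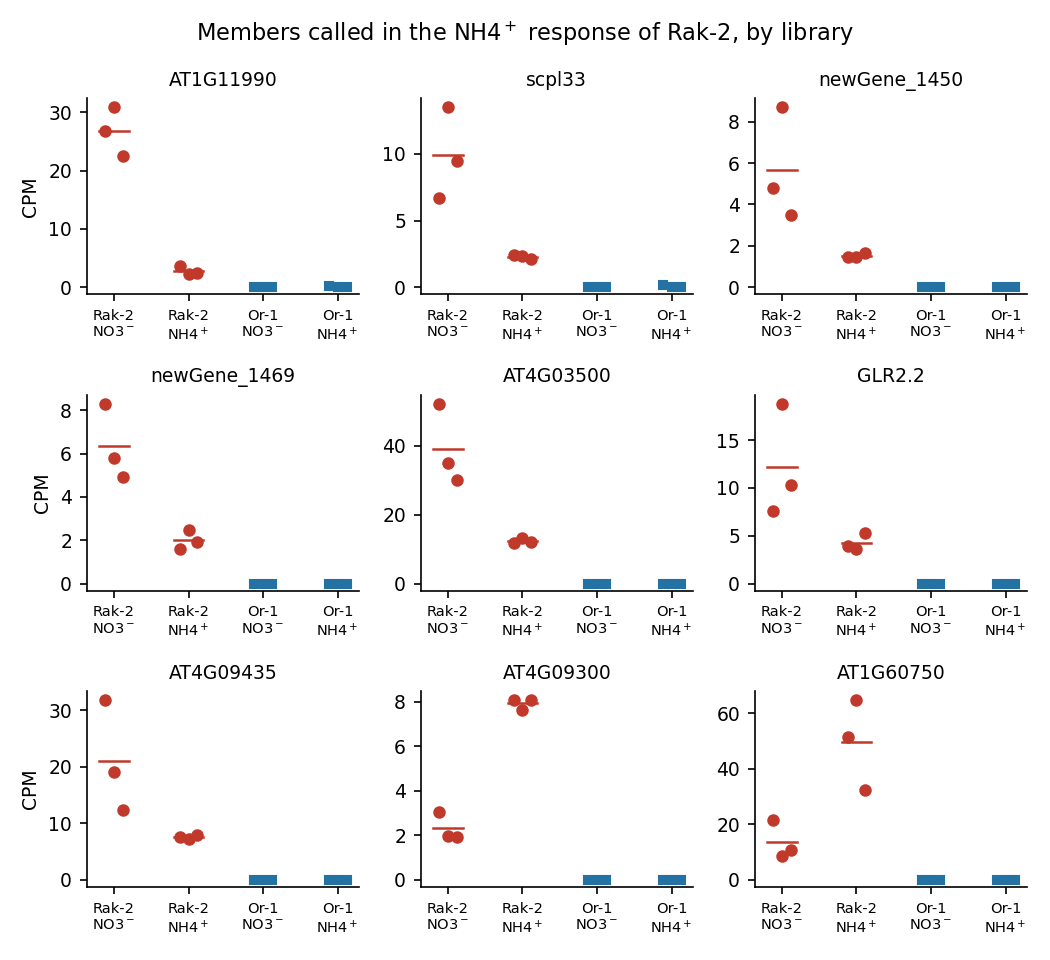
CPM of the 9 members called in the NH4+ response of Rak-2, with a panel per gene, red points for the 3 Rak-2 libraries of each nitrogen source, red lines for their mean and blue squares for the Or-1 libraries. In 7 panels the NO3- points lie above the NH4+ points, in AT4G09300 and AT1G60750 they lie below, and the Or-1 squares are at or near 0.

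Against the 6.09% of all genes called, the families were too small for their counts to say anything of the family, and their values are given as a description. Of the 7 immune receptor members, 4 had a positive and 3 a negative log2 fold change (from -1.47 to 0.62), and only AT4G09435 was called. None of the 5 kinase members was called, with log2 fold changes from -1.3 in AT2G28990 (FDR 0.0625, edgeR) to 0.43 in AT1G58150. AT2G28990 was called by DESeq2 and without NO3- replicate 3. None of the 4 lectin members was called, with values from -1.32 in AT1G53080 (FDR 0.0545) to 0.40 in AT1G61480. DESeq2 called 2 of the 4, AT1G53080 and AT1G52110. Among the 26 members of unknown function, 13 were positive and 13 negative and none was called. The highest of these was AT3G25719, at 5.57, 6.85 and 5.34 CPM under NH4+ and 0.837, 0.798 and 3.99 CPM under NO3-, where the third NO3- library stood apart. Its log2 fold change was 1.65 (FDR 0.107, edgeR), and without that NO3- replicate 3 it was 2.85 (FDR 0.00265).

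NO3- replicate 3 of Rak-2 decided several further calls. Without it, 13 members were called in place of 9, while the share of all genes called rose as well, from 6.09% to 8.91%. Among the 13 were AT1G52110, AT2G28990, AT2G46455, AT3G25719 and AT4G13680, and AT1G60750 was lost. Without NH4+ replicate 1 or 2 or NO3- replicate 2, only 3 members were called, namely AT1G11990, AT4G03500 and AT4G09300, and the share of all genes called was from 3.86% to 5.34%.

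The members with the highest levels did not pass the test of the response. AT5G45490 had a log2 fold change of -0.45 (FDR 0.238, edgeR), AT5G23830 one of 0.31 (FDR 0.447), AT4G13860 one of 0.06 (FDR 0.889), AT1G51270 one of 0.48 (FDR 0.154) and AT5G49645 one of -0.46 (FDR 0.407). NIP4;2 was at 3.72 ± 1.06 CPM under NH4+ and 1.59 ± 0.311 CPM under NO3- (SD, n = 3), with a log2 fold change of 1.23 (FDR 0.0823, edgeR), and was called by DESeq2. None of the 25 listed genes of nitrate and NH4+ transport, assimilation and signalling was a member. At the 0.331% share of all listed genes with a reference identifier, a list this short need hold none. Of the 25, 3 were called higher and 14 lower under NH4+ in Rak-2, against 2.69% and 3.4% of all genes tested.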

How the data were processed

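RNA of roots was sequenced on an Illumina platform from libraries made with the NEBNext Ultra kit. The authors deposited raw counts per gene for 12 libraries, whole numbers with no normalization, beside a gene length in bases. The aligner, the counting program, the handling of reads that match several genes and the genome build are not given in the sources used here. The authors also deposited tables of their own comparisons (FPKM, fold changes and p-values), which were not used. Members were found from the raw counts. Members and gene lists were chosen with earlier results of these data known. Names, gene order, overlaps and proteins were taken from RefSeq (assembly TAIR10.1), where 25670 of the 26568 identifiers were found. No coordinates or sequences are given, since the authors' build is not known to be the same. Families were found by words of the product name.

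Counts were analysed in R 4.3.3 with edgeR 4.0.16 and limma 3.58.1. Genes were kept by filterByExpr (minimum count 10, minimum total 15), libraries were scaled by TMM, and the quasi-likelihood test was fitted on all 12 libraries with a coefficient per group. P-values were adjusted over the 19327 genes tested. CPM and FPKM were computed from the deposited counts with TMM-scaled library sizes. Folds of members against Or-1 are lower bounds on the observed folds, set against a floor of 3 counts in the Or-1 library with the smallest scaled size. Proteins were compared with blastp 2.17.0 (E-value at most 1e-05). The scripts were tested on simulated data with the same spread in every group. In the real data Rak-2 was more variable under NO3- than under NH4+, so that test does not bear on how stable the calls are. The named genes were the 10 members with a reference identifier that had the highest mean FPKM, the called members, the runs of at least 3 members, the 3 genes on each side of each threshold and the 2 highest of each family with at least 3 members. Other members, neighbours and relatives were chosen after their values were seen. Alternatives were DESeq2 1.42.0, other scalings and filters, glmTreat, a replicate block, only the groups compared and leaving out each library.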

Additional observations from a re-analysis of the deposited data

How the results depend on the processing

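With no count allowed in Or-1 the rule found 69 genes. The 9 members called in the NH4+ response of Rak-2 (2 higher and 7 lower) became 14 with DESeq2, 4 of them higher, and all 9 were among these. The 5 gained were AT1G52110, AT1G53080, AT2G28990, AT4G13680 and NIP4;2, and 7.28% of all genes were called. With edgeR's glmTreat against the fold threshold only AT1G11990 remained, so 1 was lower and 0 were higher. This was 0.909% of members, against 1.42% of all genes. At an unadjusted p under 0.05 there were 27 in the main fit (24.5%, against 28.7% of all genes). Leaving out each Rak-2 library in turn gave from 3 to 13 called members, from 1 to 4 higher and from 2 to 9 lower. The called share was from 2.73% to 11.8% of members and from 3.86% to 8.91% of all genes. Same-numbered libraries of the Rak-2 groups did not deviate together in all cases (correlations of 0.14, -0.03 and 0.30), so the replicate number was not taken as a pairing. With it as a replicate block, 11 members were called (10%, against 7.07% of all genes), 8 of them shared with the 9. AT1G53080, AT2G28990 and AT3G25719 were gained, and GLR2.2 was lost (FDR 0.0526). GLR2.2 was also lost with upper-quartile scaling (FDR 0.0549), with scaling by library size alone (FDR 0.0635) and with only the 2 Rak-2 groups fitted (FDR 0.0535). Among members with no Or-1 count, an alternative chosen after seeing the data, 7 of 69 were called (10.1%, against 6.09% of all genes). With the 2 nearest genes on each side, 206 of 311 neighbours were tested and 44 were called under NO3- (30 lower and 14 higher in Or-1) and 44 under NH4+ (32 lower), or 21.4% in both, against 8.64% and 12.2% of all genes. Of the tested relatives of at least 80% identity, 2 were called under NO3- and 1 under NH4+. The shares over all genes were 8.64% and 12.2%, and so few relatives say nothing beside them. Leaving out neighbours that overlap a member was also chosen after seeing the data. No direction reversed under any alternative run. With 48 members under 100 counts in every library, depth limits how small a change could be called.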
